A study of Mus musculus with 6 samples.

Results

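The fibroblast growth factor (FGF) genes described here are 6 secreted ligands, Fgf4, Fgf5, Fgf8, Fgf10, Fgf15 and Fgf17, and the 4 receptor tyrosine kinases Fgfr1, Fgfr2, Fgfr3 and Fgfr4. They were taken by gene symbol from tables of 24054 genes, and each symbol matched 1 row. All 10 passed the filter on low counts, which left 14539 genes for testing. RNA was sequenced from 1 double knock-in (DKI) mouse embryonic stem cell (ESC) line, heterozygous for Foxa2-Venus and homozygous for Sox17-Cherry, and every sample carried both fluorescent fusion genes. The d0 population consisted of undifferentiated ESCs sorted as negative for Venus and Cherry. The d3F population, labelled mesendoderm, was sorted as Venus-positive and Cherry-negative on day 3 of culture with 1 ng/ml Wnt3a and 10 ng/ml Activin A, and d5FS, labelled endoderm, was positive for both on day 5 under the same factors. Per the study's methods the line had been kept on fibroblast feeders, which were removed before differentiation, and no FGF is named among the added factors. Each population had 2 independent biological replicates, and the comparisons ask how the expression of each FGF gene differs between ESCs, mesendoderm and endoderm.

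FGF ligands bind their receptors at the cell surface together with heparan sulfate, and the receptors signal through adaptor proteins, Ras and the MAP kinases of the Erk family. Active signalling switches on its own inhibitors of the Sprouty and Dusp families as well as Etv transcription factors. In the early mouse embryo Fgf4 made by pluripotent cells acts in lineage choice, Fgf5 marks the post-implantation epiblast, and Fgf8 is needed for cells to leave the primitive streak, the site where mesoderm and endoderm form.

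The libraries held between 16457729 and 22768686 expected counts, the fractional read assignments of the RSEM program. Levels are given as counts-per-million (CPM) after trimmed-mean (TMM) scaling, which compares 1 gene between samples, and transcripts-per-million (TPM), which corrects for transcript length, is used only to compare FGF genes within a sample. Genes without a coding transcript took 54.3% to 76.9% of all TPM and took more in replicate 2 of every population, so that TPM of 1 gene was not compared between samples. Both sorted genes followed the labels, with Foxa2 at 0.0439 and 0.308 CPM in d0 against 36.6 to 71.1 CPM in the other populations, and Sox17 at 54.3 and 103 CPM in d5FS against at most 14.5 CPM elsewhere. In bulk RNA a smaller share of expressing cells and less RNA per cell cannot be told apart.

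Most of the FGF genes differed between ESCs and endoderm. A gene was called when its adjusted p was below 0.05 and its log2 fold change beyond 1 in either direction, by the quasi-likelihood test of edgeR, with p-values adjusted over all genes tested by the Benjamini-Hochberg method. From d0 to d3F 4 FGF genes were higher and 1 was lower, where 2.8% of all genes tested were called higher and 1.9% lower. From d3F to d5FS none was higher and 1 was lower, against 1.08% and 0.461% of all genes. At an unadjusted p below 0.05 it was 6 of the 10 in this last comparison, against 2635 of all 14539 genes. That cut was passed by 2994 of all genes from d0 to d3F and by 5660 from d0 to d5FS. From d3F to d5FS DESeq2, a second count test with the same thresholds, called 2 higher (Fgfr2 and Fgfr3) and 3 lower (Fgf15, Fgf17 and Fgfr1), where it called 4.08% and 3.08% of all genes. With the replicate number as a block in edgeR, since same-numbered samples deviated together, 2 were higher (Fgfr2 and Fgfr3) and 2 lower (Fgf15 and Fgfr1), against 3.27% and 3.04% of all genes. From d0 to d5FS 4 were higher and 4 lower by edgeR, against 12.4% and 10.4%, and with the block 6 higher and 4 lower, against 15.9% and 13.6%. Of these genes Fgfr4 passed the filter on low counts only through d5FS, and the d5FS counts of Fgf15 were too low to pass it. The median log2 fold change of the 10 genes was 0.45, -0.40 and 1.57 in these comparisons, and that of all genes tested was -0.01, 0.01 and 0.02. Samples without overlap were common. From d0 to d3F both later samples lay above both earlier ones for 26.7% of all genes and below for 24.2%. These shares were 26.5% and 25.7% from d3F to d5FS, and 32.2% and 30.5% from d0 to d5FS. Of the FGF genes 4 lay above and 2 below, 4 and 4, and 6 and 4 in these comparisons. Leaving out 1 sample at a time moved the number of called FGF genes from 5 to between 2 and 5 for d0 to d3F, where it was 2 without d3F replicate 2, and from 1 to between 0 and 2 for d3F to d5FS, where it was 0 without d3F replicate 1 or either d5FS replicate and 2 without either d0 replicate.

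**Figure D1:**
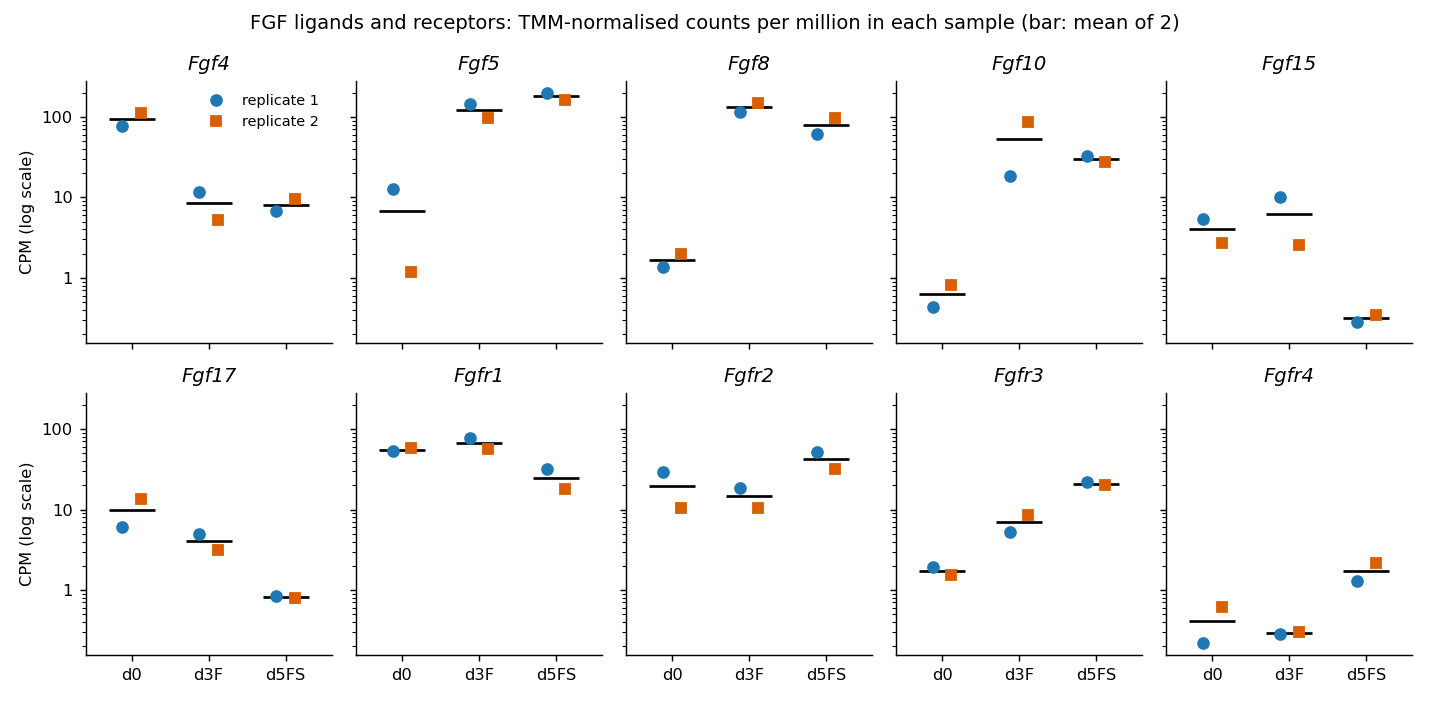
Level of each FGF ligand and receptor in the 6 samples, as CPM after TMM scaling on a log axis. Circles are replicate 1, squares replicate 2 and bars the mean of 2. Fgf8 and Fgf10 sat at 1.999 CPM or less in d0 and at 18.4 CPM or more in the other populations, and Fgf4 ran the opposite way.

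Among the ligands Fgf8 had the clearest gain. It stood at 1.36 and 1.999 CPM in d0, 115 and 148 CPM in d3F, and 60.9 and 96.1 CPM in d5FS. The d0 samples were far below the other 4, and the d5FS samples were both below the d3F samples. Fgf8 rose 78.1-fold from d0 to d3F (log2 fold change 6.29, SE 0.43, adjusted p = 0.00220) and was 46.8-fold higher in d5FS than in d0 (5.55, SE 0.42, adjusted p = 9.29e-04). Its difference from d3F to d5FS, -0.74 on the log2 scale, did not pass the test (adjusted p = 0.296). Both calls against d0 were kept in each of the 6 fits that left out 1 sample, with log2 fold changes between 5.19 and 6.60.

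Fgf10, a ligand best known from mesenchyme that signals to neighbouring epithelium, had very few reads in ESCs. Its CPM was 0.439 and 0.820 in d0, where it had 10 and 16 counts. These d0 counts were just too low to pass the filter on low counts by themselves. The Fgf10 calls against d0 given below were also made when at least 10 counts were required in every sample. In d3F the replicates differed widely, at 18.4 and 87.0 CPM, and in d5FS they lay between these values, at 33.0 and 27.2 CPM. The d0 samples did not overlap with the others, whereas d3F and d5FS did. Fgf10 was higher in d3F than in d0 by 6.39 on the log2 scale (SE 0.82, adjusted p = 0.0103) and in d5FS by 5.58 (SE 0.80, adjusted p = 0.00408). Without d3F replicate 2 the first value was 4.88 and remained called, and the difference from d3F to d5FS changed from -0.81 to 0.71, neither of them called. The same d3F replicate 2 had more summed CPM of 7 paraxial, lateral and cardiac mesoderm markers (30.2 against 7.35 in d3F replicate 1, with 2.11 to 5.67 in the other samples), of 8 embryonic fibroblast markers (84.5 against 36.3) and of 7 extraembryonic endoderm markers (336 against 132). In d3F the genes with the highest mean in these lists were Meox1, Col1a2 and Sparc, in this order. From d0 to d3F edgeR called none of the 7 extraembryonic endoderm markers, and their median log2 fold change was -0.45. The d3F cells had been sorted as Venus-positive, and the part of the markers of all these lists in the Fgf10 level was not tested.

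Fgf5 rose more unevenly. Its d0 replicates were at 12.5 and 1.18 CPM, the d3F replicates at 146 and 97.1 CPM, and the d5FS replicates at 199 and 161 CPM. The 3 populations did not overlap and stood in the order of differentiation, although the d0 replicates were 3.31 apart on the log2 scale, more than for any other of the 10 genes in any population. From d0 to d3F Fgf5 was 17.6-fold higher (log2 fold change 4.14, SE 0.88, adjusted p = 0.0373) and from d0 to d5FS 26.0-fold (4.70, SE 0.90, adjusted p = 0.0101). The step from d3F to d5FS was 0.57 and did not pass (adjusted p = 0.745).

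Which ESC sample was used weighed on these Fgf5 values. Without d0 replicate 1 the rise to d3F was 6.68 on the log2 scale, and without d0 replicate 2 it was 3.29. The call from d0 to d3F was lost without d3F replicate 1 (adjusted p = 0.0809), d3F replicate 2 (0.0961), d5FS replicate 1 (0.0671) or d5FS replicate 2 (0.0708), with the direction unchanged, and the call from d0 to d5FS was kept in all 6 such fits, at 3.85 to 7.23. Replicate 1 of d0 also had more summed CPM of 5 neuroectoderm markers (203 against 22.2 in replicate 2), of 6 mesendoderm markers (33.1 against 12.6) and of 4 formative epiblast markers (992 against 588), and less of 7 pluripotent cell markers (1316 against 2948). In d0 the genes with the highest mean in these lists were Nes, T, Dnmt3b and Pou5f1, in this order. Only 3 of the 5 neuroectoderm genes passed the filter on low counts. The part of these differences in the Fgf5 level was not tested.

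The upstream sequences of 3 ligands with large changes are shown because they are the stretch next to the transcription start. They are the 250 bases before the start in the RefSeq annotation of build GRCm38.p6, all on the plus strand, with any searched motif in capitals. Fgf4 is read from chr7:144861136-144861385, Fgf5 from chr5:98253934-98254183 and Fgf10 from chr13:118714449-118714698.
Fgf4: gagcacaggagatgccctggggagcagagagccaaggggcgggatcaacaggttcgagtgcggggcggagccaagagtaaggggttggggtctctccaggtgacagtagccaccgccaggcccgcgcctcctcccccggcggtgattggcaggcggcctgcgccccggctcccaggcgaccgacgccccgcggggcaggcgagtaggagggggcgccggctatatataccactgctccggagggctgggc
Fgf5: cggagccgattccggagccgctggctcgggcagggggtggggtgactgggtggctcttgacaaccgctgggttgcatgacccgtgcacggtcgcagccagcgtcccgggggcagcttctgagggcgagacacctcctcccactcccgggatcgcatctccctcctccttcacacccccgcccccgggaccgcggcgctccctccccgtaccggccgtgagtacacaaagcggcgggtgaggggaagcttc
Fgf10: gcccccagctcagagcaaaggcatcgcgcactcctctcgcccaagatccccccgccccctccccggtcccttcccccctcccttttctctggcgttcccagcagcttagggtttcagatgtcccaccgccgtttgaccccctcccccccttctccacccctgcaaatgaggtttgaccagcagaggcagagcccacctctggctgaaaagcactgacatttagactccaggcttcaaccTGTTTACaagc

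The Fgf4 and Fgf5 windows were rich in G and C, at 71.2% and 70.8%, with 21 and 24 CpG dinucleotides, and the Fgf10 window had 61.2% and 8 CpG dinucleotides. The median over 32851 promoter windows of the same length was 52.4% with 6 CpG dinucleotides. On both strands 6 strings were searched, none of which contains another, and they were TGTTTAC for Foxa factors, AGATAA for Gata factors, AGGTGTGA for T-box factors, ATGCAAAT for the octamer, CTTTGAT for Tcf/Lef factors and TATAAA for the TATA box. Among the FGF genes with a window (Fgf4, Fgf5, Fgf10, Fgfr2, Fgfr3 and Fgfr4) the single match was TGTTTAC in Fgf10, on the plus strand 11 bases before the start. That string was present in 3.17% of all windows, and the other strings in 1.12% to 12.4%. Only these exact strings were searched, so that other forms of a motif were missed, such as the TATA-like stretch tatatata of the Fgf4 window. The lack of a match is therefore not the lack of a motif. A match is a description of letters and not of a bound site.

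Fgf4, the main FGF of pluripotent cells, was low in both differentiated populations. It was at 77.9 and 111 CPM in d0, 11.6 and 5.25 CPM in d3F, and 6.69 and 9.46 CPM in d5FS. Both d0 samples were above the other 4, and d3F and d5FS overlapped. Fgf4 was 11.2-fold lower in d3F than in d0 (log2 fold change -3.48, SE 0.46, adjusted p = 0.0103) and 11.7-fold lower in d5FS (-3.55, SE 0.47, adjusted p = 0.00317). The call from d0 to d3F was lost without d3F replicate 2 (-3.02, adjusted p = 0.0541), and that from d0 to d5FS was kept without any 1 sample. Between d3F and d5FS the log2 difference was -0.06 (SE 0.43, adjusted p = 0.958). Replicate 1 of d3F, with the higher Fgf4, also had the higher summed CPM of the pluripotent cell markers, 885 against 469 in replicate 2 and 172 and 138 in d5FS, and their part in the Fgf4 level was not tested.

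Against d0, Fgf17, which belongs to the Fgf8 subfamily, was lower in the other populations, whereas Fgf8 was higher. From d3F to d5FS both had negative estimates. It was at 6.10 and 13.5 CPM in d0, 4.91 and 3.18 CPM in d3F, and 0.851 and 0.802 CPM in d5FS. The populations followed each other downward without overlap. Only the whole course passed the test, 11.7-fold lower in d5FS than in d0 (log2 fold change -3.55, SE 0.58, adjusted p = 0.00568), and this call was kept without any 1 sample. The steps were -1.27 from d0 to d3F (adjusted p = 0.202) and -2.29 from d3F to d5FS (adjusted p = 0.0881), and the second was called without d0 replicate 1 (adjusted p = 0.0385) or d0 replicate 2 (0.0493).

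Fgf15, the mouse counterpart of human FGF19, was lowest in d5FS. Its levels were 5.35 and 2.72 CPM in d0 and 9.99 and 2.58 CPM in d3F, which overlapped, and 0.284 and 0.344 CPM in d5FS, where it had 5 and 6 counts. It was the only FGF gene called from d3F to d5FS, at -4.30 on the log2 scale (SE 0.83, adjusted p = 0.0478), and was also lower in d5FS than in d0 (-3.66, SE 0.82, adjusted p = 0.0169). The d5FS counts of Fgf15 were too low to pass the filter on low counts by themselves. The direction of these calls is therefore not independent of the filter. The Fgf15 value from d0 to d3F, 0.64, was not called (adjusted p = 0.668) and turned to -0.64 without d3F replicate 1. The call from d3F to d5FS was lost without d3F replicate 1 (adjusted p = 0.292), d5FS replicate 1 (0.278) or d5FS replicate 2 (0.191), and that from d0 to d5FS without d5FS replicate 1 (0.107) or d5FS replicate 2 (0.0802). Fgf15 and Fgf17 each overlap 1 annotated noncoding RNA gene, and Fgfr1 overlaps 2, none of them listed in the tables. The library kit does not mark strand, so that reads of these partners cannot be told apart from theirs.

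**Figure D2:**
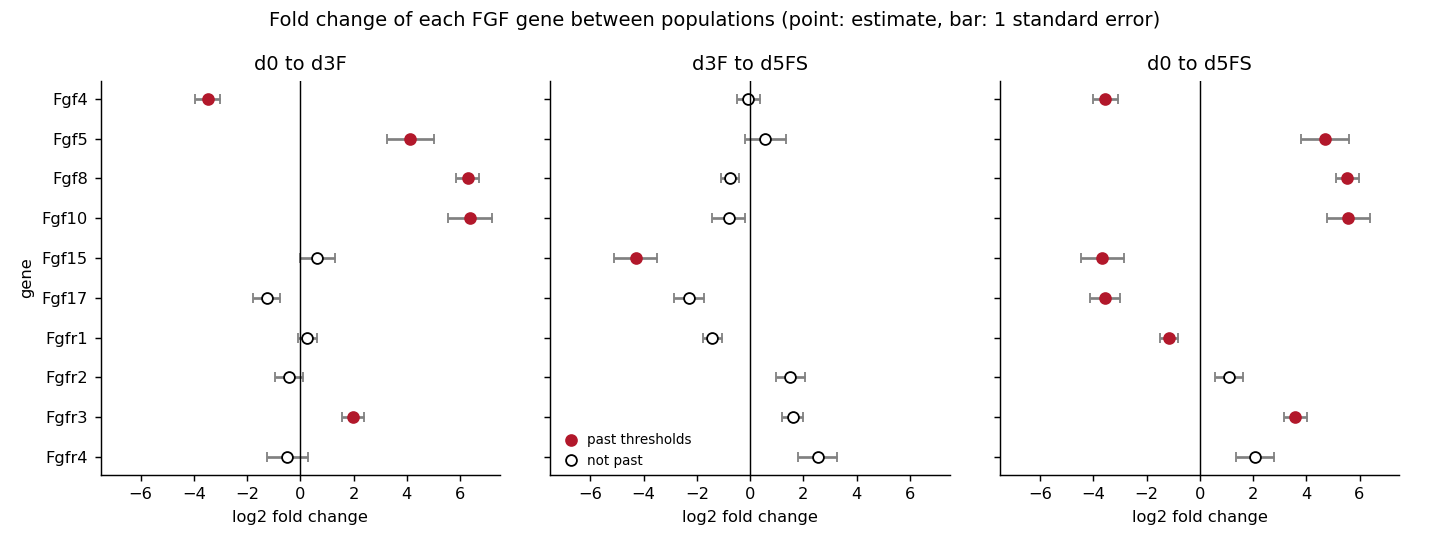
Log2 fold change of each FGF gene in the 3 comparisons, with bars of 1 standard error. Filled points passed both thresholds and open points did not. The 5 called genes from d0 to d3F are Fgf4, Fgf5, Fgf8, Fgf10 and Fgfr3, and Fgf15 is the single one from d3F to d5FS.

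Among the receptors Fgfr3 had the largest change. It was at 1.93 and 1.54 CPM in d0, 5.32 and 8.54 CPM in d3F, and 22.1 and 20.005 CPM in d5FS. The 3 populations did not overlap. Fgfr3 was 3.97-fold higher in d3F than in d0 (log2 fold change 1.99, SE 0.41, adjusted p = 0.0334) and 12.1-fold higher in d5FS than in d0 (3.59, SE 0.43, adjusted p = 0.00254). The second call was kept without any 1 sample, and the first was lost without d0 replicate 2 (adjusted p = 0.116), d3F replicate 2 (0.231), d5FS replicate 1 (0.0696) or d5FS replicate 2 (0.0689). The step from d3F to d5FS, 1.60, missed the threshold (adjusted p = 0.0858), and passed it with the replicate block (1.62, adjusted p = 0.0439).

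Fgfr1, the receptor with the most transcripts in ESCs, was at 52.8 and 58.1 CPM in d0, 76.5 and 56.8 CPM in d3F, and 31.7 and 18.1 CPM in d5FS. The d5FS samples were the lowest, and d0 and d3F overlapped. It was 2.23-fold lower in d5FS than in d0 (log2 fold change -1.16, SE 0.35, adjusted p = 0.0472). This call was lost in each of the 6 fits that left out 1 sample. The adjusted p was 0.0731 and 0.130 without d0 replicate 1 and 2, 0.0776 and 0.0787 without d3F replicate 1 and 2, and 0.0575 and 0.191 without d5FS replicate 1 and 2, with log2 fold changes of -1.62 to -0.80. The difference was 0.27 from d0 to d3F (adjusted p = 0.740) and -1.42 from d3F to d5FS (adjusted p = 0.0909), where it was called lower with the replicate block (-1.45, adjusted p = 0.0321).

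Fgfr2 was at 29.2 and 10.4 CPM in d0, 18.7 and 10.5 CPM in d3F, and 51.8 and 32.1 CPM in d5FS. Both d5FS values were above the other 4, and no comparison passed the test without the replicate block. The log2 differences were -0.44 from d0 to d3F (adjusted p = 0.716), 1.08 over the whole course to d5FS (0.168) and 1.52 for the last step (0.190). With the block Fgfr2 was called higher in d5FS than in d0 (1.21, adjusted p = 0.0152) and than in d3F (1.55, adjusted p = 0.0284). Without d0 replicate 1, the sample that also had the high Fgf5, the value from d0 to d5FS was 2.0 (adjusted p = 0.0321) and that from d0 to d3F turned to 0.49.

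Fgfr4 had few reads throughout, with 5 and 12 counts in the ESC samples, 7 and 6 in the d3F samples and 23 and 38 in the d5FS samples. These correspond to 0.219 and 0.615 CPM, 0.284 and 0.303 CPM, and 1.31 and 2.18 CPM, so that both d5FS samples were the highest. Its differences of 2.06 from d0 to d5FS (adjusted p = 0.0666) and 2.54 from d3F to d5FS (adjusted p = 0.123) did not pass the test. With the replicate block the first passed (2.11, adjusted p = 0.0389), and without a filter on low counts the second did (2.52, adjusted p = 0.0447). The d0 and d3F counts of Fgfr4 were too low to pass the filter by themselves. Its direction in the filtered fits is therefore not independent of the filter.

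Compared per length within each sample, the make-up of the receptor transcripts differed between endoderm and the earlier populations. Fgfr1 held 62.6% and 81.7% of the summed receptor TPM in d0 and 75.3% and 72.9% in d3F, but 28.4% and 23.4% in d5FS. The Fgfr2 share was 34.1% and 14.3% in ESCs, then 18.0% and 13.2% on day 3, and 45.9% and 40.5% in the d5FS samples. Fgfr3 went from 2.89% and 2.64% through 6.28% and 13.3% to 23.8% and 31.4%. Both d5FS samples were thus below the other 4 for Fgfr1 and above them for Fgfr2 and Fgfr3. In d5FS the means were 43.2% ± 3.81 for Fgfr2, 27.6% ± 5.37 for Fgfr3, 25.9% ± 3.50 for Fgfr1 and 3.26% ± 1.95 for Fgfr4 (SD, n = 2), and Fgfr3 and Fgfr1 overlapped. In d0 the means were 72.1% ± 13.6 for Fgfr1, 24.2% ± 14.0 for Fgfr2, 2.77% ± 0.17 for Fgfr3 and 0.88% ± 0.63 for Fgfr4. With 2 samples a group the exact permutation test cannot give a p below 0.333, so that no test was made of the shares.

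The ligand transcripts changed their leading member as well. Fgf4 held 65.2% and 74.3% of the summed ligand TPM in d0 and at most 1.91% in any later sample. Fgf8 led in d3F, at 61.8% and 71.0%, followed by Fgf5 at 29.9% and 18.1%. In d5FS Fgf8 had 41.5% and 57.6% and Fgf5 had 52.1% and 37.0%, with no order between them that held in both replicates. Fgf10, despite its fold change, held at most 8.47% in any sample. Within the whole transcriptome of d3F replicate 1 and 2, Fgf8 stood at the 96.2 and 96.8 percentile of TPM over the detected genes, and Fgfr1, the leading receptor, at 75.6 and 72.1.

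**Figure D3:**
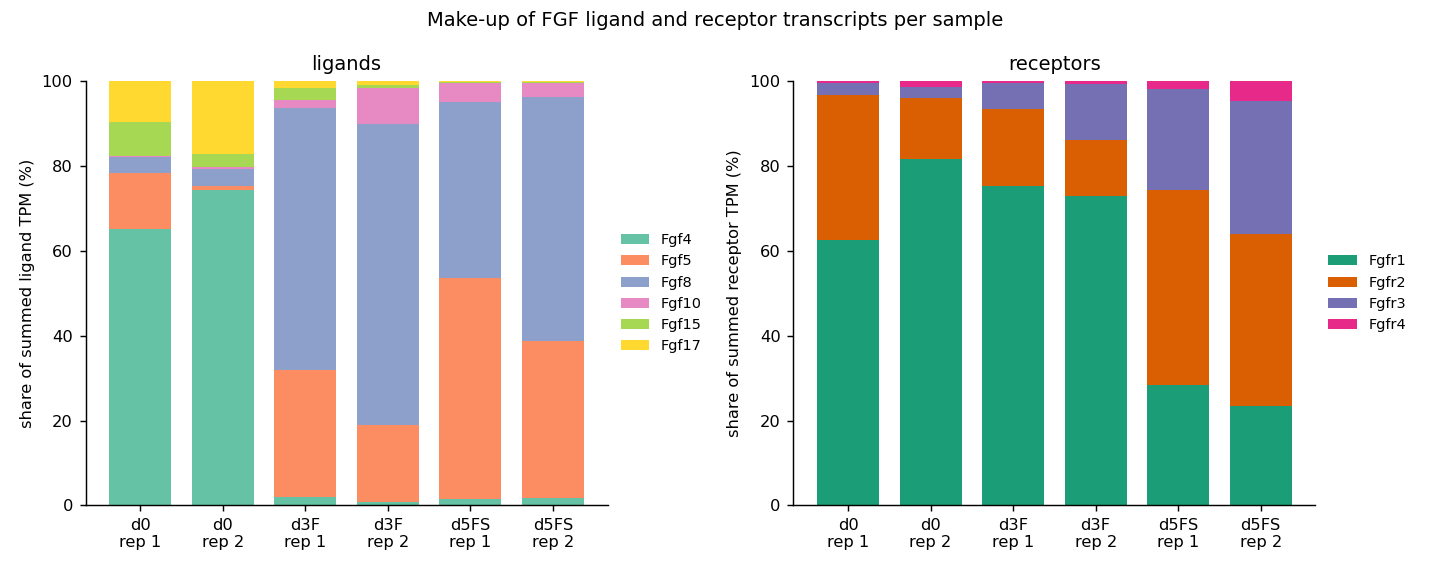
Share of each gene in the summed TPM of the 6 ligands (left) and of the 4 receptors (right), in percent, for each of the 6 samples. Fgf4 made up most ligand transcripts in d0 and Fgf8 in d3F, and the Fgfr1 share of the receptors was 28.4% or less in d5FS.

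Of the other secreted FGF ligands 4 of 12 passed the filter on low counts, and all 4 were rare. Fgf16 had 1 and 2 counts in d0 and 14 and 18 in d5FS, and Fgf21 had 4 and 3 counts in d0 and 52 and 18 in d5FS. Both were called higher in d5FS than in d0 (adjusted p = 0.0291 and 0.0184). Fgf3, the neighbour of Fgf4, had 14 counts in each of the d0 samples, and 0 and 1 in d5FS, and was called lower (adjusted p = 0.0272). The d0 counts of Fgf16 and Fgf21 and the d5FS counts of Fgf3 were too low to pass the filter by themselves. The direction of these calls is therefore not independent of the filter. Leaving out 1 sample ended the calls of Fgf3 and Fgf16 in all 6 fits and that of Fgf21 without d0 replicate 1, d0 replicate 2 or d5FS replicate 1, with adjusted p up to 0.178. Fgf1 was not called, and none of the 3 intracellular FGF homologous factors tested (Fgf11, Fgf13 and Fgf14) was called by edgeR without the block, with 0, 1 and 1 of them at an unadjusted p below 0.05. Fgf13 was called lower by DESeq2 from d0 to d5FS and by the replicate block there and for the last step, and of the rare ligands DESeq2 called Fgf21 alone.

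Surface proteins that bind FGFs or their receptors were higher in endoderm where they passed the test. From d0 to d5FS 4 of 9 were higher and none was lower, with a median log2 fold change of 2.04, where 12.4% of all genes tested were called higher and 10.4% lower. Flrt3, a transmembrane partner of FGF receptors, was at 10.6 and 4.56 CPM in d0, 20.5 and 40.0 CPM in d3F, and 120 and 183 CPM in d5FS (4.32, SE 0.54, adjusted p = 0.00294). Its relative Flrt2 (3.07), the receptor-like Fgfrl1, which lacks the kinase domain (2.04), and Fgfbp1, a carrier that frees FGFs from the matrix (2.44), were the other 3. All 4 calls were kept without any 1 sample. By edgeR Fgfbp1 was the single one called from d3F to d5FS, where 5 of the 9 had an unadjusted p below 0.05, and it went from 83.4 and 74.5 to 372 and 335 CPM (2.16, adjusted p = 0.0298), a call lost without either replicate of d3F or d5FS, with adjusted p up to 0.238. In that comparison DESeq2 and the replicate block also called Flrt3 higher and Il17rd lower. From d0 to d3F DESeq2 also called Fgfrl1, Flrt2 and Flrt3 higher, and the block Fgfrl1. Il17rd (Sef), an inhibitor of FGF signalling, was highest in d3F, at 257 and 170 CPM against 59.6 to 90.6 CPM in the other samples, and was called from d0 to d3F (1.63, adjusted p = 0.0305), though in 1 of the 6 fits without a sample, the one without d0 replicate 1.

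Heparan sulfate genes mostly did not pass the test. Of 20 genes for its synthesis and carriers 1 was higher and 1 lower from d0 to d3F, against 2.8% and 1.9% of all genes. None was called from d3F to d5FS, where DESeq2 called Gpc4, Hs6st2 and Sulf1. There 4 had an unadjusted p below 0.05, near the share of all genes (2635 of 14539). From d0 to d5FS 3 were higher, near the 12.4% of all genes called higher. The genes called by edgeR without the block were carrier proteins. From d0 to d5FS DESeq2 called 4 higher (Gpc1, Gpc3, Gpc4 and Sdc3) and 2 lower (Sdc4 and Sulf1), against 13.5% and 12.8% of all genes, and the replicate block the same 6 genes and Hs6st2. The block also called Hs6st2 and Sulf1 from d3F to d5FS. Gpc6 was called by both from d0 to d3F, and Gpc4 by DESeq2. The glypican Gpc3 was at 24.8 and 23.9 CPM in d0, 148 and 409 CPM in d3F, and 502 and 333 CPM in d5FS, and was called in both comparisons with d0 (3.51 and 4.10, adjusted p = 0.0135 and 0.00302). Gpc4 (3.82) and Gpc1 (1.39) were higher in d5FS than in d0, and the syndecan Sdc4 was lower in d3F than in d0 (-1.70). The Gpc3 and Gpc4 calls were kept without any 1 sample, whereas Gpc1 was lost without d0 replicate 2 or d5FS replicate 2 (adjusted p up to 0.0750) and Sdc4 in every fit without a sample other than d0 replicate 2 (up to 0.339).

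Few genes of the core pathway were called, but only for d0 to d5FS was their number low beside all genes. Among 19 adaptors and kinases from Frs2 to Erk, 1 was called from d0 to d3F, against 2.8% of all genes higher and 1.9% lower. None was called from d3F to d5FS, against 1.08% and 0.461% of all genes. In that comparison 1 of the 19 had an unadjusted p below 0.05, and DESeq2 called 0. Over the whole course to d5FS 1 was called, against 12.4% and 10.4%, and this difference from all genes was not tested. The median log2 fold changes of the 19 genes were 0.01, 0.18 and -0.11, in this order. Gab1, a docking protein, was lower in d3F, at 48.5 and 46.6 CPM against 117 and 122 CPM in d0 (-1.33, adjusted p = 0.0303). Mapk3, which encodes Erk1, was higher in d5FS, at 55.9 and 68.2 CPM against 32.6 and 28.3 CPM (1.02, adjusted p = 0.0350). Leaving out 1 sample ended the Mapk3 call in all 6 fits (adjusted p up to 0.129) and the Gab1 call in all but the one without d0 replicate 1 (up to 0.285). From d0 to d5FS DESeq2 called Gab1 lower and not Mapk3, and the replicate block called Braf higher beside Mapk3. The receptor splicing regulators Esrp1, Esrp2, Ptbp1 and Rbfox2 had no call by edgeR or DESeq2, and 1 of them had an unadjusted p below 0.05, from d0 to d5FS.

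Genes that FGF signalling is known to switch on were mostly lower in endoderm where called. Of 11 feedback inhibitors tested 4 were lower and 1 was higher from d0 to d5FS, where 10.4% of all genes were lower and 12.4% higher, and none was called from d0 to d3F or from d3F to d5FS, where 4 each had an unadjusted p below 0.05. DESeq2 called Spry2 and Spry4 lower from d0 to d3F, where it called 4.34% of all genes lower and 5.71% higher, and Dusp6 lower from d3F to d5FS. The same 3 calls were made with the replicate block, where 5.57% of all genes were higher and 3.51% lower from d0 to d3F. Spry2 was at 54.6 and 100 CPM in d0, 31.0 and 20.9 CPM in d3F, and 10.2 and 13.3 CPM in d5FS (-2.72, SE 0.41, adjusted p = 0.00460), and the 3 populations did not overlap. The Erk phosphatase Dusp6 was at 247 and 114 CPM in d0, 189 and 135 CPM in d3F, and 57.5 and 46.7 CPM in d5FS (-1.79, adjusted p = 0.0187). Spry4 (-1.33) and Dusp9 (-1.11) were lower as well, and Spry1 (1.19) was higher, so that the Sprouty genes did not move as 1 group.

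The 3 Etv transcription factors tested were lower in endoderm. Etv5 was at 237 and 377 CPM in d0, 133 and 78.9 CPM in d3F, and 22.2 and 40.0 CPM in d5FS (-3.30, SE 0.45, adjusted p = 0.00343), with no overlap between populations. Etv1 (-2.99, adjusted p = 0.0328) and Etv4 (-1.72, adjusted p = 0.0317) were also lower from d0 to d5FS. Fos, an immediate early gene, went the other way, from 5.75 and 2.31 CPM in d0 to 22.8 and 25.1 CPM in d3F and 31.2 and 16.3 CPM in d5FS (2.56 to d3F and 2.55 to d5FS, adjusted p = 0.0314 and 0.0118). Egr1 (1.05) and Myc (-0.996) were not called by edgeR from d0 to d5FS, and Egr1 was called higher there by DESeq2 and with the replicate block. Both also called Etv1 and Etv5 lower from d3F to d5FS, where edgeR without the block called none of the 6 and 2 had an unadjusted p below 0.05, and DESeq2 called Etv5 lower from d0 to d3F.

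Of the calls from d0 to d5FS in these gene groups, those of Spry2 and Etv5 were kept without any 1 sample. The Dusp9 call was lost in all 6 fits, that of Spry1 in all but the one without d5FS replicate 2, that of Spry4 without d0 replicate 2, either d3F replicate or d5FS replicate 1, and that of Dusp6 without d0 replicate 1 or either d5FS replicate, with adjusted p up to 0.220. Etv1 was lost without d0 replicate 1 or d5FS replicate 2 (up to 0.123), Etv4 without d0 replicate 2 or d5FS replicate 1 (up to 0.170), and Fos without d5FS replicate 1 (0.0721). The Fos call from d0 to d3F was lost without d0 replicate 2 or either d3F replicate (up to 0.140).

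**Figure D4:**
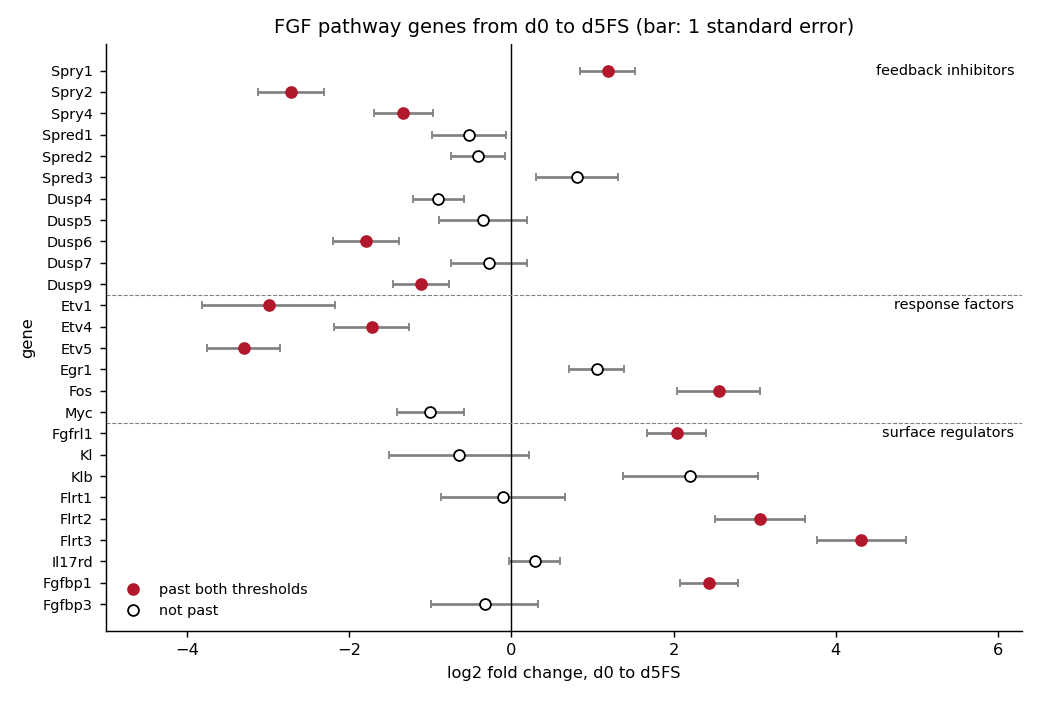
Log2 fold change from d0 to d5FS of feedback inhibitors, response transcription factors and cell-surface regulators of FGF signalling, with bars of 1 standard error. Filled points passed both thresholds, and they lie left of 0 for Spry2, Spry4, Dusp6, Dusp9 and the 3 Etv genes and right of 0 for Spry1, Fos, Fgfrl1, Flrt2, Flrt3 and Fgfbp1.

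Populations that gained FGF genes also differed in marker genes of other cells. The summed CPM of 7 definitive endoderm markers was 604 and 1111 in d5FS against 7.46 and 9.43 in d0. In the same samples 7 extraembryonic endoderm markers summed to 670 and 692 CPM (166 and 177 in d0, led by Sparc in all populations), and 8 embryonic fibroblast markers to 235 and 197 CPM (10.6 and 17.4 in d0), of which Lum was at 0 in d5FS. The part of such cells in the levels of Fgf5, Fgf10, Fgfr2 and Fgfr3 in d5FS was not tested.

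The genes whose course over the 6 samples lay closest to that of each FGF gene other than Fgfr4 were found among 10948 expressed genes, by the root mean square (RMS) difference of centred log2 CPM. For Fgf4 the nearest was Klf2, a naive pluripotency factor, at 0.26. For Fgf8 they were Vldlr, at 0.43, and Gsc, a homeobox gene of the anterior primitive streak, at 0.50, and Vldlr was second for Fgf10, at 0.45, behind the proprotein convertase Pcsk5, at 0.25. Fgf5 was nearest to Slc39a8, at 0.34, Fgf15 to Enpp3, at 0.30, and Fgf17 to Pdk1, at 0.25. Among the receptors Fgfr2 was nearest to Myo1d, at 0.08, Fgfr3 to Baiap2l1, at 0.15, and to the ephrin receptor Epha4, at 0.16, and Fgfr1 to Gm10336, at 0.14. These are likenesses over 6 samples that share their population means and library depths, and were not tested.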

How the data were processed

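RNA of 6 FACS-sorted samples (3 populations, 2 replicates each) was depleted of ribosomal RNA and sequenced from TruSeq V2 libraries, which do not mark strand. Per the labels and methods, the authors aligned reads to mm10 (GRCm38) with STAR and quantified genes with RSEM. Program versions are not given in the sources used here. The deposited tables hold, per gene and sample, the expected counts, TPM and FPKM that the authors made with RSEM from these alignments, with lengths and effective lengths. The deposited FPKM values were not used. The authors' own comparisons used DESeq2 with a log2 fold change threshold of 1.

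Expected counts were rounded and genes with low counts removed (filterByExpr). The 14539 genes left were TMM-scaled and tested in 1 fit of all 6 samples by edgeR's quasi-likelihood test (edgeR 4.0.16, limma 3.58.1, R 4.3.3), with 3 residual degrees of freedom, and p-values were adjusted by Benjamini-Hochberg over all genes. A call needed an adjusted p below 0.05 and a log2 fold change beyond 1. The script was tested on simulated data. Labels share replicate numbers and state no shared batch, but same-numbered samples deviated together (correlations over 14539 genes of 0.314 between d0 and d3F, 0.324 between d0 and d5FS, and 0.278 between d3F and d5FS), so values with the replicate block are given where they change a call. Since the 3 comparisons share populations, their calls are not independent of each other. Depth was 16457729 to 22768686 expected counts per sample, and precision is limited by 2 replicates.

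The FGF genes and pathway and marker lists were chosen with earlier results of these data known. Every FGF gene is named. Of the pathway lists the called genes are named, with at most 4 others per list, and of the nearest patterns those with the smallest RMS difference. The genes called by DESeq2 or with the replicate block alone and the neighbours on chromosome 7 were named after their values were seen. Spry3 has no row in the tables. Alternatives were DESeq2 size factors, no filter, at least 10 counts in every sample, glmTreat, DESeq2 1.42.0 with and without a tested threshold, fits of the 2 populations compared, a replicate block, other share scales and leaving out each sample. Promoter windows come from RefSeq (GRCm38.p6). Python 3.11.15 with pandas 2.3.3 and matplotlib 3.10.9 was used for the tables and plots.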

Additional observations from a re-analysis of the deposited data

How the results depend on the processing

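Of 14 called values of FGF genes, 8 were kept in every fit that left out 1 sample and in every other alternative: Fgf8 and Fgf10 in both comparisons with d0, and Fgf4, Fgf5, Fgf17 and Fgfr3 from d0 to d5FS. Of the 26 called values of other pathway genes 8 were kept in all. The number of called FGF genes, 5, 1 and 8 for d0 to d3F, d3F to d5FS and d0 to d5FS, became 3 for d0 to d3F with glmTreat, with DESeq2 against a log2 fold change of 1 and with the 2 populations alone. For d3F to d5FS it became 6 without a filter, 0 with at least 10 counts in every sample, 0 with glmTreat, 5 with DESeq2 at the same thresholds and 4 with the replicate block. With at least 10 counts in every sample 8 FGF genes were tested, and Fgf15, the single gene called there by the main fit, was not among them. The number of called feedback inhibitors and response factors, 1, 0 and 9, became 4 (no filter), 0 (glmTreat), 4 (DESeq2, same thresholds), 0 (DESeq2 against 1) and 3 (replicate block) for d0 to d3F, 4 (no filter), 3 (DESeq2, same thresholds), 1 (2 populations alone) and 3 (replicate block) for d3F to d5FS, and 3 with glmTreat and 3 with DESeq2 against 1 for d0 to d5FS. Without 1 sample the FGF counts ranged from 2 to 5, 0 to 2 and 6 to 8, and the feedback and response counts from 0 to 2, 0 to 1 and 3 to 6. Values not called that changed sign without 1 sample, with their range over these fits, were from d0 to d3F Fgf15 (-0.64 to 1.32, negative without d3F replicate 1), Fgfr2 (-0.98 to 0.49, positive without d0 replicate 1) and Fgfr4 (-1.05 to 0.42, positive without d0 replicate 2), and from d3F to d5FS Fgf4 (-0.53 to 0.61, positive without d3F replicate 1 and, at 0.15, without d5FS replicate 1) and Fgf10 (-1.55 to 0.71, positive without d3F replicate 2). Fgfr1 from d0 to d5FS was also lost with glmTreat, DESeq2 against 1, the 2 populations alone and at least 10 counts in every sample. The causes were not tested. Fits without a sample have 2 residual degrees of freedom in place of 3, and the part of this in the lost calls was not tested either.

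With the replicate block Fgfr1 (-1.45), Fgfr2 (1.55) and Fgfr3 (1.62) were called from d3F to d5FS, and Fgfr2 (1.21) and Fgfr4 (2.11) from d0 to d5FS, and it changed no other call of an FGF gene. The receptor shares stayed within 1 SD when made from expected counts per kilobase of the mean effective length. That scale uses the same reads and differs from TPM only in the length. Division of TPM by the TMM factor of a sample cancels in a share, so that this scale could not change them.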

Other observations

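Fgf3, Fgf4 and Fgf15 lie next to each other on chromosome 7 in GRCm38.p6, with 18.0 kb between Fgf3 and Fgf4 and 31.3 kb between Fgf4 and Fgf15. This cluster was looked at after the values were seen. Of the 5 genes tested within 200 kb, Fgf3, Fgf4, Fgf15 and Ccnd1, the gene of cyclin D1, were lower in d5FS than in d0 by edgeR with Benjamini-Hochberg adjustment, and Ano1, on the far side of Fgf3, was higher (log2 fold change 2.24, adjusted p = 0.0267). Ccnd1 had 3596 and 2481 counts in the d0 samples, 2695 and 1619 in the d3F samples and 252 and 176 in the d5FS samples. Its difference on the log2 scale was -3.55 between d0 and d5FS (adjusted p = 0.00158) and -2.97 between d3F and d5FS (adjusted p = 0.0130). The 4 genes did not share 1 course, since Fgf4 was already low in d3F (-3.48 from d0), where Fgf15 (0.64) and Ccnd1 (-0.58) were not called. Neighbours were not compared with other gene clusters.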
